A study of Mus musculus with 4 samples.

Results

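The epidermal growth factor (EGF) family was followed through the kidneys of diabetic and nondiabetic mice with or without removal of 1 kidney. The genes were chosen by name, as 6 ligands (Egf, Tgfa, Hbegf, Areg, Ereg and Btc) and 4 receptors (Egfr, Erbb2, Erbb3 and Erbb4), together with all of their probe sets. Of these 10 genes, 9 were paired with a probe set in the array annotation, against 18193 genes in all. They had 20 probe sets, of 34945 that carry a single gene name. Areg, which encodes amphiregulin, was not analysed here.

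EGF family ligands are made as membrane-anchored precursors and are released by shedding proteases, after which they bind ERBB receptor tyrosine kinases. Ligand binding pairs the receptors, which then signal through the RAS-MAPK and PI3K-AKT cascades and switch on immediate early genes, while feedback inhibitors limit the signal. In the kidney Egf is made mainly in the thick ascending limb and the distal convoluted tubule, and EGF receptor signalling takes part in tubular repair and in magnesium reabsorption.

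The 4 groups were FVB-sham and FVB-uni, nondiabetic control littermates after sham surgery or uninephrectomy, and OVE-sham and OVE-uni, diabetic OVE26 transgenic mice after the same operations. All were female mice on the FVB/NJ background, operated on at 2 months of age and killed at 4.5 months, 10 weeks after surgery. The OVE26 transgene is expressed under an insulin promoter in pancreatic beta cells, so the diabetes follows from damage to these cells. Frozen kidney RNA of 4 mice was combined in each group and each pool was put on 1 array, so no value has a replicate and no value measures the spread between animals. In such tissue, fewer cells of a type and less RNA per cell cannot be told apart.

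Values are intensities, the brightness of a probe set on a linear scale, which the authors had scaled to an equal trimmed mean of 500.003 on each array. Intensities of different genes are not compared, because probes differ in how strongly they bind. Log2 differences were taken after adding an offset of 26.4, the brightest probe set (by mean log2 value) stood for its gene, and a gene counted as expressed when that mean reached 7.06. This left 7 of the 9 members (4 ligands and 3 receptors) and 11206 genes in all, and 12 of the 20 member probe sets. The kidney segment markers were present: 11 of 11 named markers of the thick ascending limb and distal convoluted tubule, 7 of 8 of the proximal tubule and 8 of 8 of the collecting duct were expressed. The signal of the 18S ribosomal RNA control probe sets was 1.02-fold that of FVB-sham in FVB-uni, 1.32-fold in OVE-sham and 1.88-fold in OVE-uni, and its part in the results below was not tested. The ratio of 3′ to 5′ signal of the beta-actin control lay between 2.78 and 3.72, with the lowest value in FVB-sham, and that of the Gapdh control between 0.897 and 1.01.

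None of the 7 expressed members differed 2-fold between arrays. In OVE-sham against FVB-sham, 0 of 7 were at least 2-fold higher and 0 lower, where 0.794% and 0.446% of all expressed genes were. In OVE-uni against FVB-uni the counts were likewise 0 and 0, beside 2.14% and 1.04% of expressed genes. In FVB-uni against FVB-sham they were again 0 and 0, against 0.678% and 0.518%, and in OVE-uni against OVE-sham 0 and 0, against 1.48% and 0.669%. After each array was centred on its median, the higher and lower genes of these comparisons, 89 and 50, 240 and 116, 76 and 58, and 166 and 75 in the same order, became 67 and 71, 316 and 75, 44 and 89, and 203 and 53. With so few members, counts of 0 lie near these background shares. Of the 12 probe sets above the filter 0 were 2-fold higher or lower in any comparison. In the same order of comparisons, 0.707% and 0.589%, 1.75% and 1.03%, 0.744% and 0.651%, and 1.24% and 0.687% of all probe sets above the filter were higher and lower. Of the 8 below it, 1 Egfr probe set was lower in OVE-uni than in FVB-uni and 1 Erbb4 probe set higher in FVB-uni than in FVB-sham. The 4 comparisons use the same 4 arrays, so a value from 1 array enters 2 of them.

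A test was possible for each factor over both arms, with an additive model in limma that takes the disagreement between arms as error. For diabetes 0 of 7 members passed at an adjusted p below 0.05 in either direction, where 1.47% of expressed genes were higher and 0.732% lower, and 2 of 7 had an unadjusted p under 0.05, against 9.48% of expressed genes. These were Egf and Btc, which lay on opposite sides. For uninephrectomy 0 of 7 passed, where 0.33% were higher and 0.178% lower, and 0 had an unadjusted p under 0.05, against 5.68% of expressed genes. The words rose and fell are used below only for genes that passed this test. A gene has 1 residual degree of freedom here, and its standard error (SE) therefore borrows from genes of similar intensity.

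Promoter sequences are shown for the ligands with the most negative and the most positive mean diabetes difference and for their common receptor. The 150 bases before the start site are from RefSeq (GRCm38.p6), which held a promoter entry for 7 of the 10 genes. Capitals mark a GC box.
Egf: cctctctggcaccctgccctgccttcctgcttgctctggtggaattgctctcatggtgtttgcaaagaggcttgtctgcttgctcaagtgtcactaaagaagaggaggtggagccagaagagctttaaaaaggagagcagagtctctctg
Btc: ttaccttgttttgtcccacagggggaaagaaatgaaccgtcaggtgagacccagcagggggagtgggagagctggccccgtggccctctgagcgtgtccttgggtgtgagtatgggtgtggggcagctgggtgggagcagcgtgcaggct
Egfr: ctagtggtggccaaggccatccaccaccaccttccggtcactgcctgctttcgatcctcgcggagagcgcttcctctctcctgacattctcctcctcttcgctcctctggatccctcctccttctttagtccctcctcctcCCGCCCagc

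They lie at chr3:129755323-129755472 (minus strand), chr5:91402995-91403144 (minus strand) and chr11:16752053-16752202 (plus strand). RefSeq lists a second start site for Egf, not shown. The 250 bases before each start were searched on both strands for 5 motifs. These were a TATA box (TATAAA), a GC box with the letters GGGCGG, and a CCAAT box, searched by those letters. The others were an AP-1 element (TGANTCA) and an EGR element (GCGNGGGCG), which can overlap a GC box. These letters are present in 12.4%, 32.7%, 33.8%, 6.75% and 4.7% of 32851 promoter entries. The GC box was found before Egfr, Tgfa and Areg, the TATA box before Areg and the CCAAT box before Erbb2, while none of the 5 was found before Egf or Btc. The share of G and C was 50.4% for Egf (52% at its second start), 54% for Erbb4, 57.2% for Areg, 59.6% for Btc, 60.8% for Egfr, 66% for Erbb2 and 69.2% for Tgfa, with a median of 52.4% over all entries. A match is a description of letters, and its absence says nothing about a factor.

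Egf, the founding ligand of the family, showed the lowest signal in the kidneys of diabetic uninephrectomised mice. Its intensity was 36519 in FVB-sham, 38379 in FVB-uni, 31758 in OVE-sham and 20209.8 in OVE-uni. The OVE-uni signal was 0.527-fold that of FVB-uni and 0.636-fold that of OVE-sham, while the OVE-sham signal was 0.87-fold that of FVB-sham. The log2 differences with diabetes were -0.20 (sham) and -0.92 (uninephrectomy), and 1.41% of expressed genes lay as low or lower in the second comparison. The mean over both arms was -0.56 ± 0.22 (limma SE) and did not pass (adjusted p = 0.273). It passed under quantile normalisation (limma adjusted p = 0.000198) and median centring (limma adjusted p = 0.023), with nearly the same mean of -0.54 and -0.55, and over 10 settings, the reported one included, the adjusted p ranged from 0.000198 to 0.75. Uninephrectomy gave a log2 difference of 0.07 in nondiabetic mice, which became -0.06 after quantile normalisation and after median centring, and of -0.65 in diabetic mice. The only Egf probe set lay at 40.8% to 67.6% of the highest intensity of its array and no second probe set could be set beside it.

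**Figure D1:**
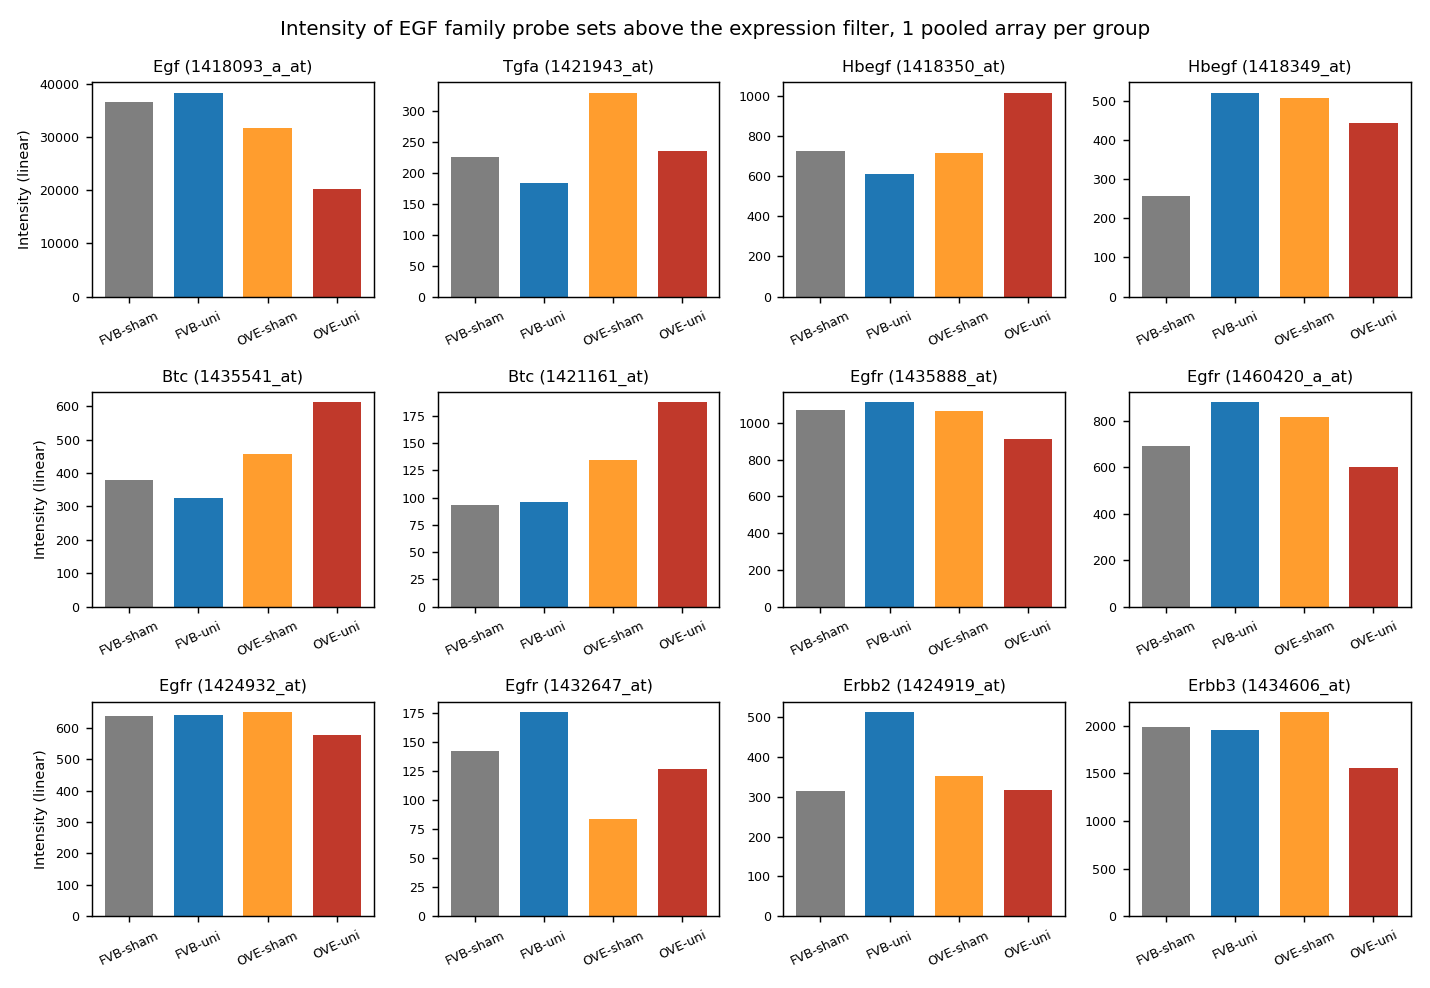
Bars give the linear intensity of each EGF family probe set above the expression filter on the 4 arrays (1 pooled array per group, so there are no error bars, and each panel has its own scale from 0). Egf was lowest in OVE-uni at 20209.8, both Btc probe sets were highest there at 611.3 and 187.4, and the pair of Hbegf probe sets differed in their order of groups.

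Markers of the segments that make Egf were set beside it. Of 11 expressed markers of the thick ascending limb and distal convoluted tubule, 10 were lower in OVE-uni than in FVB-uni and 7 were lower in OVE-sham than in FVB-sham, with median log2 differences of -0.27 and -0.06, against -0.01 and 0.01 over all expressed genes. Of all expressed genes 48.6% and 51.6% were higher in these 2 comparisons. With limma, where 0.732% of expressed genes fell and 1.47% rose with diabetes, 1 of the 11 fell and 0 rose. This was Pvalb, which encodes the calcium-binding protein parvalbumin of the distal convoluted tubule, whose mean was -0.78 ± 0.16 on the log2 scale (adjusted p = 0.000887 in limma). It passed in 6 of 10 settings and was lost with median centring, without the filter, with the mean of probe sets and without the trend, with adjusted p up to 0.31 in limma. At an unadjusted p under 0.05 there were 4 of 11, against 9.48% of expressed genes. The medians were -0.15 in both arms after median centring and -0.20 in both after quantile normalisation.

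Slc12a3, the thiazide-sensitive sodium chloride cotransporter of the distal convoluted tubule, had intensities of 7411 in FVB-sham, 8023 in FVB-uni, 6457 in OVE-sham and 4305 in OVE-uni. Its log2 differences with diabetes, -0.20 (sham) and -0.89 (uninephrectomy), lay beside -0.20 and -0.92 for Egf. Its mean of -0.55 ± 0.16 did not pass (limma adjusted p = 0.063), but did under quantile normalisation, the stricter filter and the larger offset (limma adjusted p = 0.00334, 0.0192 and 0.0491), and the mean of its probe sets was 0.042. Umod and Slc12a1 of the thick ascending limb, chosen after their values were seen, had smaller differences of -0.41 and -0.14 in uninephrectomised mice, with signals of 48279 and 36353 and of 21731 and 19756. The highest intensities of these arrays were 60134 (FVB-uni) and 49543 (OVE-uni), and Umod lay nearer to them than Egf. What this does to the size of its difference was not tested. Trpm6, the magnesium channel gene regulated by EGF and likewise chosen afterwards, had differences of -0.26 (sham) and -0.30 (uninephrectomy) and did not pass. Markers of the proximal tubule were also lower in OVE-uni than in FVB-uni, in 7 of 7, with a median of -0.47. Of all expressed genes 48.6% were higher in this comparison. The marker values became 6 of 7 and -0.35 after median centring.

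**Figure D2:**
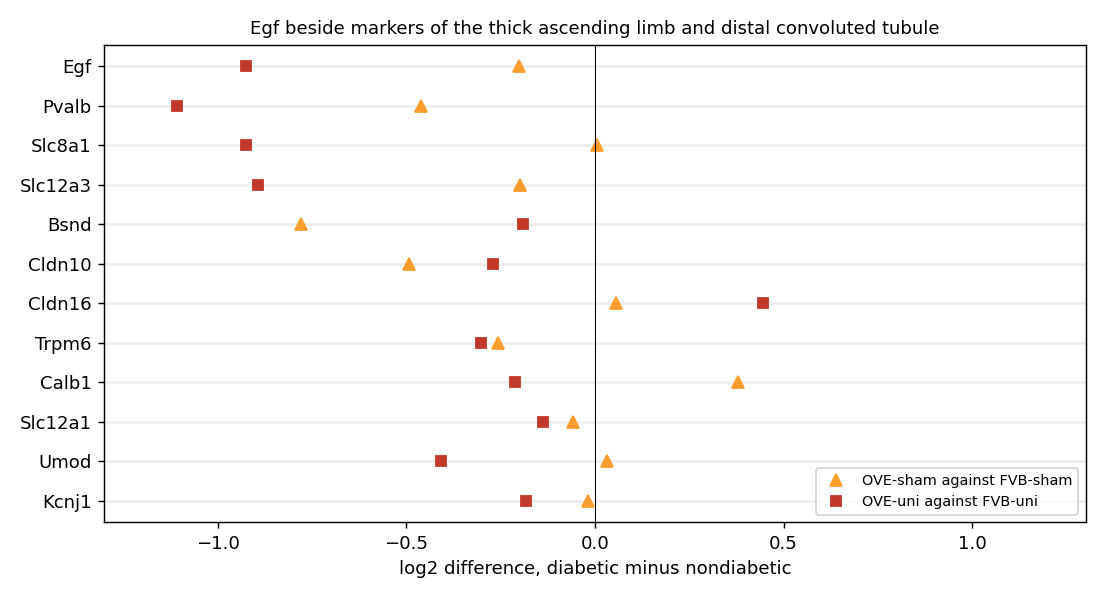
Points give the log2 difference, diabetic minus nondiabetic, of Egf and of 11 markers of the thick ascending limb and distal convoluted tubule (triangles, sham mice; squares, uninephrectomised mice; 1 pooled array per group). In uninephrectomised mice Egf at -0.92 lies beside Pvalb, Slc8a1 and Slc12a3, while Slc12a1 lies at -0.14 and Cldn16 at 0.45. The Slc8a1 difference comes from a high FVB-uni signal of 4228.4. Its OVE-uni signal of 2217.3 was not below FVB-sham (2040.7) or OVE-sham (2047.5).

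Btc encodes betacellulin, a ligand of EGFR and ERBB4, and had its highest signal in OVE-uni. The brighter probe set had intensities of 378.6 in FVB-sham, 325.4 in FVB-uni, 457.8 in OVE-sham and 611.3 in OVE-uni, and the dimmer one of 93.1, 95.7, 134.1 and 187.4 in the same groups. On each probe set both diabetic arrays lay above both nondiabetic arrays, while the order of the nondiabetic arrays differed. The dimmer one passed the filter only through the diabetic arrays, since both nondiabetic values lie under its intensity of about 107, so it is a description and no support for the brighter one. The OVE-uni signal was 1.88-fold that of FVB-uni on the brighter and 1.96-fold on the dimmer probe set, and the OVE-sham signal was 1.21-fold and 1.44-fold that of FVB-sham. The brighter probe set had log2 differences with diabetes of 0.26 (sham) and 0.86 (uninephrectomy). In the second comparison 2.95% of expressed genes lay as high or higher. The mean of 0.56 ± 0.23 did not pass (limma adjusted p = 0.306, and 0.221 to 0.671 over 9 settings).

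Hbegf encodes heparin-binding EGF-like growth factor, and its 2 probe sets disagreed. The brighter one had intensities of 723.5 in FVB-sham, 609.8 in FVB-uni, 714.6 in OVE-sham and 1016 in OVE-uni, so that OVE-uni was highest at 1.67-fold the FVB-uni signal. The dimmer one had 258, 520.7, 506.7 and 441.8, so that FVB-sham stood apart below the other 3 arrays. Both probe sets carry the same transcript accession in the annotation. Their log2 differences with diabetes were -0.02 and 0.91 in sham mice and 0.71 and -0.22 in uninephrectomised mice, opposite in sign in both arms, although the first of these became 0.01 under quantile normalisation. For uninephrectomy in nondiabetic mice they were -0.24 and 0.94. The raw ratio of the dimmer probe set there was 2.02, which the offset reduces to a log2 difference under 1. The mean diabetes difference of 0.35 ± 0.19 on the brighter probe set did not pass (limma adjusted p = 0.633).

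Tgfa encodes transforming growth factor alpha, a high-affinity EGFR ligand of epithelia. The brightest of its 3 probe sets, the only 1 above the expression filter, had intensities of 226.2 in FVB-sham, 184.7 in FVB-uni, 330.4 in OVE-sham and 236 in OVE-uni. It was higher in diabetic than in nondiabetic mice after either operation, 1.46-fold in sham and 1.28-fold in uninephrectomised mice, and lower after uninephrectomy in both, 0.817-fold and 0.714-fold. The mean log2 differences were 0.41 ± 0.28 for diabetes (limma adjusted p = 0.796) and -0.35 ± 0.28 for uninephrectomy (limma adjusted p = 1), and neither passed. The other 2 probe sets, with intensities between 33.6 and 128.9, had differences with diabetes of 0.10 and 0.17 (sham) and of -0.20 and -0.66 (uninephrectomy). With uninephrectomy they had 0.65 and -0.08 in nondiabetic mice and 0.35 and -0.91 in diabetic mice. The first of them thus went the other way from the brightest in both. The mean over all 3 reduced the diabetes difference to 0.04 and the uninephrectomy difference to -0.12.

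Ereg, the epiregulin gene, lay below the expression filter, with intensities of 91.4 in FVB-sham, 50.4 in FVB-uni, 75.4 in OVE-sham and 58.9 in OVE-uni. Both uninephrectomy arrays were lower than both sham arrays, but at this signal no change can be read from them. In the RefSeq gene table of assembly GRCm38.p6, Epgn, Ereg, Areg and Btc follow each other on chromosome 5 with no other protein-coding gene between them. Epgn, the epigen gene, was also below the filter, so Btc was the only expressed gene of this cluster among those analysed.

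**Figure D3:**
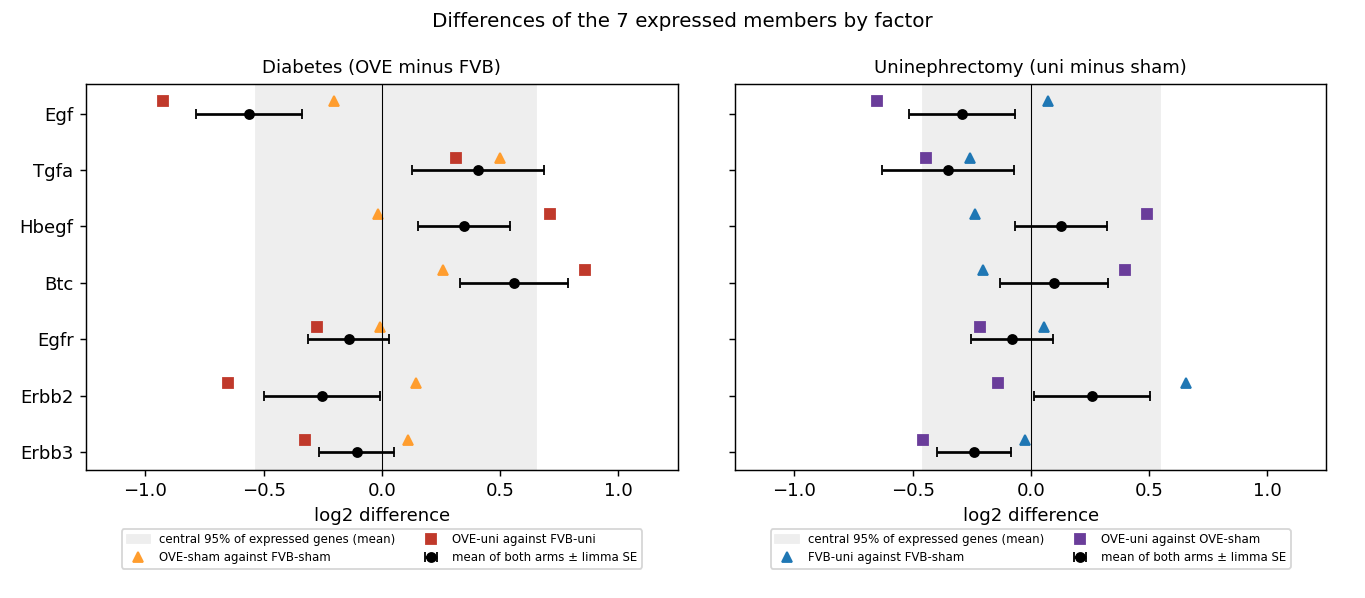
Log2 differences of the 7 expressed members with diabetes (left) and uninephrectomy (right). Triangles and squares are the 2 arms, black points with bars the mean of both arms ± the limma SE, and the grey band the central 95% of all expressed genes. The mean of Egf with diabetes lies just outside the band, and the other 13 means lie inside it.

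The 3 expressed receptors had mean diabetes differences between -0.25 and -0.11. Egfr, the EGF receptor gene, had intensities of 1068 in FVB-sham, 1111 in FVB-uni, 1064 in OVE-sham and 913.7 in OVE-uni on its brightest probe set. OVE-uni was the lowest array on this and on 2 further probe sets above the filter, which had 692.2, 879.2, 816 and 602.3 and 637.6, 639.4, 649.6 and 578.1 in the same groups. The fourth, with 142.4, 175.5, 83.6 and 126.6, was lowest in OVE-sham. Over these 4 probe sets the log2 difference of OVE-uni against FVB-uni was -0.28, -0.53, -0.14 and -0.40, all below 0. The brightest probe set gave a mean diabetes difference of -0.14 ± 0.17 (limma adjusted p = 0.961). A dim probe set below the filter had intensities of 54.5, 58.1, 19.3 and 1.9, whose 0.0327-fold ratio of OVE-uni to FVB-uni lies below the filter and gives no usable size.

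Erbb2 encodes the receptor without a known ligand that pairs with the other receptors. Its intensity was 315.2 in FVB-sham, 512.3 in FVB-uni, 351.3 in OVE-sham and 316.8 in OVE-uni, so FVB-uni stood above 3 similar arrays. Uninephrectomy gave a log2 difference of 0.66 in nondiabetic mice, where 2.79% of expressed genes lay as high or higher, and of -0.14 in diabetic mice. The diabetes differences were 0.14 (sham) and -0.65 (uninephrectomy), and the latter uses the same FVB-uni array. Neither mean passed (0.26 ± 0.24 for uninephrectomy, limma adjusted p = 1, and -0.25 ± 0.24 for diabetes, limma adjusted p = 0.921).

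Erbb3, the neuregulin receptor with an impaired kinase, had intensities of 1984 in FVB-sham, 1952 in FVB-uni, 2143 in OVE-sham and 1554 in OVE-uni. OVE-uni was again the lowest, at 0.796-fold FVB-uni and 0.725-fold OVE-sham. The mean differences of -0.11 ± 0.16 for diabetes (limma adjusted p = 0.971) and -0.24 ± 0.16 for uninephrectomy (limma adjusted p = 1) did not pass. The second Erbb3 probe set, below the filter, had intensities of 5.1, 10.2, 12.2 and 36.5. Averaging it with the first turned both means positive, to 0.22 and 0.11.

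Erbb4, a further neuregulin receptor, lay below the filter at 6.8 in FVB-sham, 40.2 in FVB-uni, 25.3 in OVE-sham and 12.1 in OVE-uni. Its difference between FVB-uni and FVB-sham was the only 1 of 36 member values to reach 2-fold on the log2 scale when no filter was used. These signals are too low for an order of the groups.

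Over the 7 expressed members, OVE-uni was the highest array for 2 and the lowest for 3, against 27.7% and 30.2% of all expressed genes. FVB-uni was the highest for 3 and the lowest for 3, against 23.4% and 23.6%. The median log2 difference of the 4 ligands was 0.12 in OVE-sham against FVB-sham and 0.51 in OVE-uni against FVB-uni, although Egf lay on the other side. The 3 receptors had medians of 0.11 and -0.32. Median centring reduced the sham medians to 0.03 for ligands and 0.02 for receptors. In OVE-uni against FVB-uni, where 48.6% of all expressed genes were higher, 3 of 4 ligands were higher and 3 of 3 receptors lower. Of these 7, 0 were 2-fold apart. These counts were the same after quantile normalisation and median centring, but averaging over all probe sets of a gene turned Tgfa to -0.18 and Erbb3 to 0.23, which leaves 2 of 4 ligands higher and 2 of 3 receptors lower. Over all expressed genes the medians were 0.01 and -0.01.

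Genes that release the ligands were measured next. Of 9 genes of ligand shedding 7 were expressed, and 0 rose or fell with either factor in limma. Of all expressed genes 1.47% rose and 0.732% fell with diabetes, and 0.33% and 0.178% with uninephrectomy. Counts of 0 in lists of this length lie near these shares. At an unadjusted p under 0.05 there were 1 for diabetes and 0 for uninephrectomy, against 9.48% and 5.68% of all expressed genes. Adam17, which encodes the main sheddase of several EGF family ligands, had intensities of 835.5 in FVB-sham, 667.6 in FVB-uni, 817.4 in OVE-sham and 825.1 in OVE-uni, and is named outside the rule for this list. Adam15 had the highest signals in diabetic mice, 724.5 and 812.7 against 513.5 and 541.8, with a mean difference of 0.52 ± 0.20 that did not pass (limma adjusted p = 0.228). Over 10 settings this mean ranged from 0.09 to 0.54 and passed in 0. The list medians with diabetes were 0.00 (sham) and 0.20 (uninephrectomy). Among the other EGF family ligands, 2 of 5 were expressed, the neuregulin genes Nrg1 and Nrg2. Nrg2 reached a log2 difference of 1.07 in OVE-sham against FVB-sham, from an intensity of 78.7 to 193.5, and 0.12 in uninephrectomised mice, and it did not pass. Both of its nondiabetic signals (78.7 and 98.5) lie under the filter intensity, so it counts as expressed only through the diabetic arrays and its 2-fold value supports nothing.

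Of 18 feedback inhibitors of ERBB signalling 17 were expressed and 0 rose or fell in limma. At an unadjusted p under 0.05 there were 2 for diabetes and 0 for uninephrectomy, against 9.48% and 5.68% of all expressed genes. The list medians with diabetes were -0.04 (sham) and -0.22 (uninephrectomy), with 10 and 12 of 17 lower, and -0.13 and -0.10 after median centring. Of all expressed genes 51.6% and 48.6% were higher in these 2 arms. Dusp6, an ERK phosphatase induced by ERK itself, had intensities of 3328 and 3242 in FVB-sham and FVB-uni and of 2561 and 2618 in OVE-sham and OVE-uni. Both diabetic arrays were lower than both nondiabetic ones, but the mean of -0.34 ± 0.15 did not pass (limma adjusted p = 0.396). Dusp4, a related phosphatase, had 264 and 336.5 in nondiabetic and 178 and 229.6 in diabetic mice and did not pass. Errfi1, which encodes the EGFR inhibitor MIG6 and was chosen after its values were seen, had differences of 0.05 (sham) and -0.38 (uninephrectomy).

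Of 28 adaptor and kinase genes 23 were expressed and 0 rose or fell in limma. At an unadjusted p under 0.05 there was 1 for each factor, against 9.48% (diabetes) and 5.68% (uninephrectomy) of all expressed genes. The list medians lay between -0.06 and -0.03 in the 4 comparisons, and that of OVE-uni against FVB-uni became 0.06 after median centring. Pik3cb, which encodes a catalytic subunit of PI3K, had intensities of 431.3 in FVB-sham, 320.9 in FVB-uni, 493.5 in OVE-sham and 261.1 in OVE-uni, and was lower after uninephrectomy in both genotypes without passing (-0.63 ± 0.24, limma adjusted p = 0.466). Src, a tyrosine kinase gene, was higher after uninephrectomy in both, at 236.7, 347, 231.6 and 322.3 in the same order, and did not pass (0.47 ± 0.26, limma adjusted p = 0.999). Stat3, a transcription factor activated downstream of several receptors, had its highest intensity in OVE-uni, 1691 against 944.3 in FVB-uni, 1089 in OVE-sham and 1079 in FVB-sham. It did not pass (0.42 ± 0.18 with diabetes, limma adjusted p = 0.329), and over 10 settings its mean ranged from 0.24 to 0.43.

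Immediate early and growth factor response genes spread in both directions. Of 15 expressed genes, limma had 1 that rose and 2 that fell with diabetes, beside 1.47% and 0.732% of all expressed genes. At an unadjusted p under 0.05 there were 10, against 9.48% of all expressed genes. For uninephrectomy 0 passed and 3 had an unadjusted p under 0.05, against 5.68%. Egr1, a transcription factor gene switched on by ERK signalling, fell by 1.03 (log2, SE 0.15, adjusted p = 4.67e-06 in limma), from 5930.1 and 6902 to 2700.5 and 3601. Dusp1, a phosphatase gene of the same early response, fell by 0.56 (SE 0.15, limma adjusted p = 0.028), from intensities of 4436 and 4455 in FVB-sham and FVB-uni to 3386 and 2655 in OVE-sham and OVE-uni. Ccnd1, the cyclin D1 gene of the entry into the cell cycle, rose by 0.58 ± 0.16 (limma adjusted p = 0.0311), from 4932 and 4142 to 6141 and 7422. These calls depend on the setting. Of 10 settings Egr1 passed in 8 and was lost with the mean of probe sets and without the trend (limma adjusted p = 0.102 and 0.207). Dusp1 and Ccnd1 passed in 6 each and were lost under these and also with median centring and without the filter, with adjusted p up to 0.451 and 0.474 in limma. Dusp1 and Ccnd1 are named outside the rule for this list, as the genes behind its count.

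Other genes of this list were highest in OVE-uni without passing. Myc had intensities of 129.2 in FVB-sham, 245.7 in FVB-uni, 214 in OVE-sham and 553.7 in OVE-uni. Its mean was 1.04 ± 0.28 with uninephrectomy (limma adjusted p = 0.0637) and 0.86 ± 0.28 with diabetes (limma adjusted p = 0.103). The first lies under an adjusted p of 0.1. For uninephrectomy 1 gene of this list passed under quantile normalisation and 1 with the larger offset. Atf3, a stress-responsive transcription factor gene, had 131.6, 115.6, 151.4 and 459.5 in the same groups, and Fosl2 of the AP-1 family had 312.9, 233.7, 325.8 and 621.5. In OVE-uni against FVB-uni 4 of these 15 lay 2-fold or more above and 0 below, beside 2.14% and 1.04% of expressed genes. In OVE-sham against FVB-sham 0 were higher and 1, Egr1, lower, beside 0.794% and 0.446%.

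**Figure D4:**
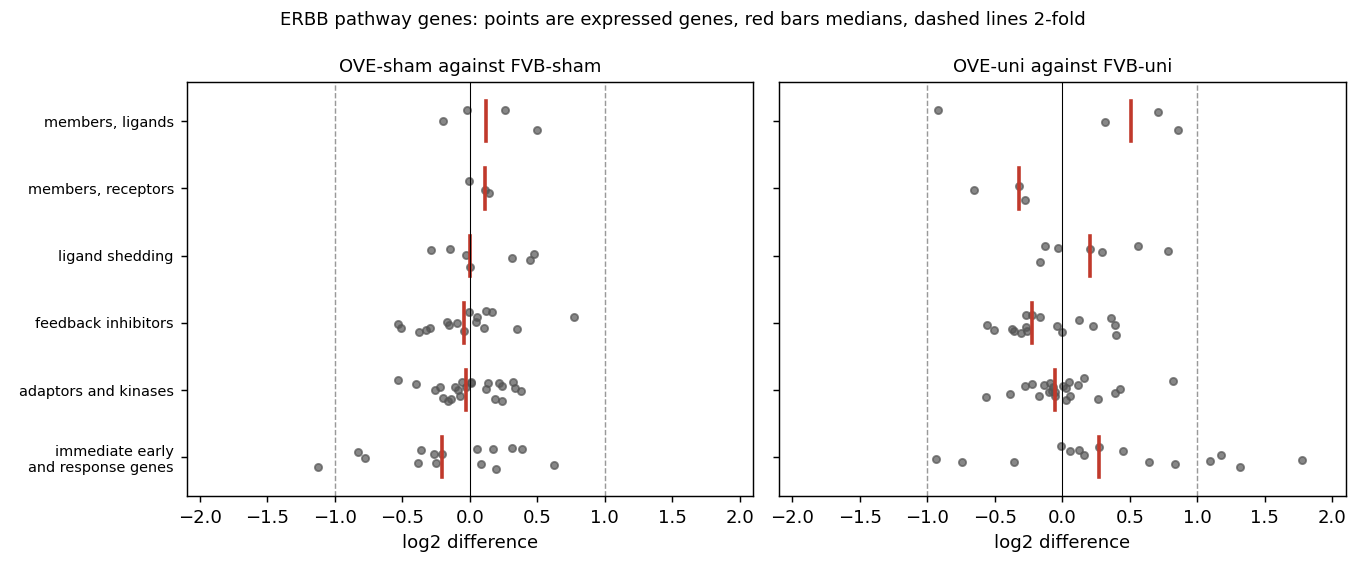
Each point is an expressed gene and its horizontal position the log2 difference with diabetes in sham mice (left) or uninephrectomised mice (right). Red bars are list medians, dashed lines mark 2-fold and the vertical spread within a row carries no meaning. The immediate early row is the widest, with a median of -0.21 in sham and 0.27 in uninephrectomised mice.

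Markers of other cells were set beside the OVE-uni array, in which Btc and the brighter Hbegf probe set were highest and Egf lowest. Not all were highest there, since the summed intensities of urothelium and adipocyte markers were highest in OVE-sham. Where 48.6% of all expressed genes were higher in OVE-uni than in FVB-uni, 8 of 8 expressed markers of injured tubules were. Their median log2 difference was 2.05. With diabetes 7 rose in limma, where 1.47% of all expressed genes did. The 7 became 4 after median centring and 0 without the filter, with the mean of probe sets or without the trend. Of these 8, 4 (Lcn2, Havcr1, Cd44 and Krt19) lie under the filter intensity on at least 1 nondiabetic array, so the count and the median rest partly on genes that pass through the arrays where they are high, and Sox9 lay below the filter. The other 4 were also higher in OVE-uni. The summed intensity of all 8, the 4 partly under the filter included, was 12359 in FVB-sham, 16162 in FVB-uni, 17108 in OVE-sham and 38057 in OVE-uni. Most of this sum lay in Clu, with 7856.6, 11462.2, 11244.3 and 21780.7 in the same groups. Of 8 expressed macrophage markers 8 were higher in OVE-uni than in FVB-uni, with a median of 0.66. Against OVE-sham, where 47.6% of all expressed genes were higher, 7 of these markers were. Their summed intensity was 14408 in OVE-uni against 7700.3 to 9059 on the other 3 arrays. Much of this lay in Lyz2, with 5042.8 in OVE-uni against 634.8 to 1010.8 on the others. Csf1r, at 5181.9 in OVE-uni, was lower there than in FVB-sham (6557.7) and OVE-sham (5928.5). Lyz2 and Cd14 rose, in 7 and 6 of 10 settings, and both were lost without the filter, with the mean of probe sets and without the trend, Cd14 also with median centring. Itgam and Cd68 lay below the filter. Of 8 markers of the urothelium, which also makes EGF family ligands, 4 were expressed and 0 rose or fell in limma. At an unadjusted p under 0.05 there were 1 for diabetes and 0 for uninephrectomy, against 9.48% and 5.68% of all expressed genes. The summed intensity of the 4 urothelium markers was between 556.5 and 832.8, while Upk1a, Upk3b, Krt5 and Krt20 lay below the filter. Adipocyte markers were highest in OVE-sham, with summed intensities of 26326 there and 5381 in FVB-uni. Of 8 markers of dividing cells 4 were expressed, while Cdk1, Aurkb and Birc5 lay below the filter. Of these 4, 3 (Mcm6, Mki67 and Top2a) lie under the filter intensity on at least 1 nondiabetic array, so no count over them is given. Rrm2, above it on all arrays, had intensities of 294.2 in FVB-sham, 382.6 in FVB-uni, 586.6 in OVE-sham and 1337 in OVE-uni. The part of these cells in the differences of Egf, Btc and Hbegf was not tested.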

How the data were processed

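The 4 arrays were hybridised with 100 ng of pooled RNA each, labelled with biotin, per the labels' protocols. The authors deposited intensity on a linear scale for 45101 probe sets (64 controls). The software behind it is not stated in any source read here. The mean after trimming 2% from each end was equal on all arrays, and no further normalisation was applied. In the annotation 34945 probe sets had 1 symbol, 932 several and 9160 none, and the last 2 classes were left out. RefSeq held 34741 of the 34945 by Entrez number, and 0 symbols changed. The offset (26.4) is the 20th percentile of the deposited intensities before log2, and the filter (7.06, an intensity of about 107) the median over probe sets. The additive model used limma 3.58.1 in R 4.3.3, with eBayes and a trend, over 11206 expressed genes (57.9 prior and 1 residual degrees of freedom) and Benjamini-Hochberg adjustment over them. It was tested on simulated data of the diabetes comparison over 11206 genes, where it found 81 of 100 genes changed by a log2 value of 1 and 98 of 100 changed by 2, with 5 false calls. The simulated noise was normal, with a common spread for genes of similar intensity and no difference between arms. This is what the model assumes, so the number of false calls cannot be carried over to the real data. The number of arrays limits the precision.

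The members and gene lists were chosen with earlier results of these data known. Genes were named by rule: every member probe set, and from each list up to 4 expressed genes whose mean difference for diabetes or surgery was largest. The 3 genes nearest in pattern to a member at least 2-fold different were also to be named, but 0 expressed members reached 2-fold. Other genes are said to have been chosen afterwards. Member values, counts over all genes, list counts and the diabetes means of 10 list genes were recomputed with other scalings (quantile, median), other filters (none, 75th percentile), other offsets (1 and 72.5, the 40th percentile), other gene summaries (mean over probe sets, each probe set alone), other thresholds (1.5-fold, adjusted p of 0.1) and limma with the trend switched off. List medians were recomputed under the other scalings only.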

Additional observations from a re-analysis of the deposited data

Results flagged for a closer look

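For 9 of the 12 member probe sets above the filter, a factor had opposite signs in its 2 arms. Among all expressed genes this was so for 66.7% in at least 1 factor (47.6% for diabetes and 52.3% for uninephrectomy). Some of these signs lie near 0. The count stayed 9 under quantile normalisation, with Egf no longer and the dimmer Btc probe set now among them. It became 7 after median centring, without Egf and 2 of the Egfr probe sets and again with the dimmer Btc probe set. The difference between arms was not tested, because 4 coefficients on 4 arrays leave no residual. On the log2 scale the effect of uninephrectomy in diabetic minus that in nondiabetic mice was -0.72 for Egf, 0.73 and -1.13 for the brighter and the dimmer Hbegf probe set, and 0.60 for the brighter Btc probe set. It was -0.27, -0.76 and -0.17 for the 3 brightest Egfr probe sets, -0.80 for Erbb2 and -0.43 for Erbb3. As large a value on the same side was found in 6.26% of expressed genes for Egf, 5.47% for the brighter Hbegf probe set, 8.21% for Btc and 5.02% for Erbb2.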

How the results depend on the processing

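Of the 7 expressed members, 0 passed limma for either factor under any of the settings tried, except Egf with diabetes under quantile normalisation and median centring (values above), and none of their differences between 2 arrays reached 2-fold under any setting that keeps the filter. Probe sets counted singly kept to the same limit, with a largest size of 0.94. Signs of means turned for Erbb3 with the mean of probe sets (0.22 with diabetes and 0.11 with uninephrectomy) and for 1 dim Egfr probe set counted singly (0.37 with uninephrectomy). The mean of probe sets also turned differences between 2 arrays. Erbb3 became 0.23 in OVE-uni against FVB-uni and 0.12 against OVE-sham, and 0.10 in FVB-uni against FVB-sham. Tgfa became -0.18 in OVE-uni against FVB-uni and 0.10 in FVB-uni against FVB-sham, where Hbegf became 0.35. Hbegf also became 0.44 in OVE-sham against FVB-sham. The mean for Slc12a3 with diabetes turned to 0.042. Under another scaling signs also turned for differences of Egf, Egfr, Hbegf and Erbb3 that were at most 0.07 from 0. Centring moves the median by up to 0.13 (FVB-uni against FVB-sham).

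Counts over all genes were less stable. Genes passing for diabetes, 247, became 88 with median centring, 13 without the filter, 3 with the mean of probe sets, 62 with probe sets singly and 0 without the trend (907 at an unadjusted p under 0.05). For uninephrectomy 57 became 116 with quantile normalisation, 9, 2, 1, 16 and 4 under those 5 settings, and 90 at an adjusted p below 0.1. Genes at least 2-fold apart in OVE-sham against FVB-sham, OVE-uni against FVB-uni, FVB-uni against FVB-sham and OVE-uni against OVE-sham numbered 139, 356, 134 and 241. In this order they became 1294, 1557, 1242 and 1434 without the filter, 34, 119, 24 and 60 with the stricter filter, 251, 537, 270 and 373 with probe sets singly, and 839, 1399, 747 and 1049 at 1.5-fold. With an offset of 1 OVE-sham against FVB-sham became 226 and FVB-uni against FVB-sham 206. With the 72.5 offset these 2 became 73 and 63, and OVE-uni against OVE-sham 147. With the mean of probe sets OVE-uni against FVB-uni became 237 and FVB-uni against FVB-sham 88. Causes were not tested, beyond the smaller or larger number of features tested under the filters. No paired analysis was possible because each group has 1 array. Leaving out an array was not possible for the same reason.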
